A study of Mus musculus with 18 samples.

Results

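The plasminogen activator system was described here through the genes for both plasminogen activators, Plat (tissue-type, tPA) and Plau (urokinase-type, uPA), the urokinase receptor gene Plaur, the inhibitor gene Serpine2 and F3, which encodes tissue factor. Members were all probe sets that the platform annotation paired with 1 of these 5 symbols and no other. Plat, Plaur and F3 had 1 probe set each and Plau had 2, so that 4 of the 5 genes and 5 probe sets were measured, among 12393 genes and 22626 probe sets tested. No probe set was paired with Serpine2 in the annotation used here, so the inhibitor was not analysed here. F3 starts coagulation and is not itself a plasminogen activator.

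Kidney messenger RNA was measured on Affymetrix mouse arrays 3 days after unilateral ureteral obstruction (UUO), in which the right ureter is tied close to the kidney, or after a sham operation without the tie. All mice were C57BL/6 and were wild type (WT), TIMP2-/- or TIMP3-/-, the knockouts lacking 1 of the tissue inhibitors of metalloproteinases. Each of the 6 groups, WT sham, TIMP2-/- sham, TIMP3-/- sham, WT UUO, TIMP2-/- UUO and TIMP3-/- UUO, held 3 arrays, 18 in all, described in the labels as biological replicates. RNA came from the whole kidney of the operated side, so fewer cells of a type and less RNA per cell cannot be told apart. Age, sex and how the knockout alleles were made are not given in the sources used here.

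Plasminogen is a circulating zymogen that either activator cleaves to plasmin, a protease that degrades fibrin and other matrix proteins and activates growth factors and metalloproteinases. Urokinase is made by kidney tubule cells and shed into urine, and it acts mainly at the cell surface, where its receptor holds it. Tissue-type activator acts mainly on fibrin, and tissue factor binds factor VII to begin the cascade that forms fibrin. Interstitial fibrosis follows ureteral obstruction, and this system has been studied there both for matrix turnover and for the recruitment of inflammatory cells.

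As a check of the genotype labels, all 4 Timp3 probe sets stood at 20.15 to 60.81 in the TIMP3-/- groups and at 989.7 or above elsewhere. Of the 6 Timp2 probe sets, 5 were lower in TIMP2-/- than in WT after UUO, and none passed after sham. The 5 proximal tubule markers averaged 13.23 to 13.40 (log2) over the sham arrays, which fits the labelled tissue. On the principal component carrying 64.8% of the variance every UUO array (2.4 to 120.8) lay apart from every sham array (-78.2 to -27.2). On the next component (16.6%) WT sham 3 (-81.4) and TIMP3-/- UUO 2 (-55.2) lay beyond the others (-30.7 to 44.5). The mean log2 level of 15 hepatocyte markers was 11.97 on WT UUO 2 and at most 7.77 on any other array. These 3 arrays are called doubted here. Member intensities were at least 123.3 on every array, above each array's 25th percentile (56.76 to 64.22).

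RefSeq (GRCm38.p6) gave the 250 bases before the annotated start for Plaur and F3, the measured members with an entry that matched by symbol. Capitals mark matches to TGANTCA, the letters bound by AP-1, a complex of Fos and Jun proteins. The Plaur stretch lies at chr7:24462233-24462482 on the plus strand and the F3 stretch at chr3:121723287-121723536 on the plus strand.
Plaur: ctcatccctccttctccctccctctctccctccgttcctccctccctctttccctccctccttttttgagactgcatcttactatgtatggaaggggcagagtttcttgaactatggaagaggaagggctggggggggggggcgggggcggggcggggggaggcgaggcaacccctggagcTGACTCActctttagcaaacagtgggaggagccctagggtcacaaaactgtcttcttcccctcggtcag
F3: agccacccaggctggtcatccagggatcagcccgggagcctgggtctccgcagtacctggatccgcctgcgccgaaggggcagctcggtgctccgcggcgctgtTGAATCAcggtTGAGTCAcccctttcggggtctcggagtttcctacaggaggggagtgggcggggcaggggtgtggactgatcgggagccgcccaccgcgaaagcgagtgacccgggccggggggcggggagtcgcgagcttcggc
The Plaur stretch held 1 match, TGACTCA, beginning 69 bases before the start. The F3 stretch held 2 matches, TGAATCA beginning 146 bases before the start and TGAGTCA closer to it. Searched on both strands in the same 250 bases of 32851 promoters, TGANTCA was present in 6.75%. The GC box letters GGGCGG occurred 3 times in each stretch, without overlapping the AP-1 letters, and were present in 32.7% of promoters. The TATA box letters TATAAA, present in 12.4%, were in neither stretch. These are letter matches, and binding was not measured.

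Obstruction raised Plat, Plaur and F3 in WT, TIMP2-/- and TIMP3-/- kidneys, and Plau passed in none of them. In each genotype 3 of the 5 member probe sets were higher and 0 were lower, by limma's moderated test at an adjusted p under 0.05. Over all probe sets, 30.8% passed in WT (14.7% higher, 16.1% lower), 35.0% in TIMP2-/- (14.1% higher, 20.9% lower) and 62.5% in TIMP3-/- (25.0% higher, 37.5% lower). The members' median log2 change was 1.44 in WT, 0.92 in TIMP2-/- and 1.13 in TIMP3-/-, against -0.12, -0.12 and -0.18 over all probe sets. Centring each array on its median moved the median of all probe sets by a further -0.13, -0.15 and -0.23, and the higher share of all calls went from 47.7% to 32.2% in WT, from 40.2% to 25.5% in TIMP2-/- and from 40.0% to 27.2% in TIMP3-/-. The 3 higher member calls per genotype were made on either scaling.

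**Figure D1:**
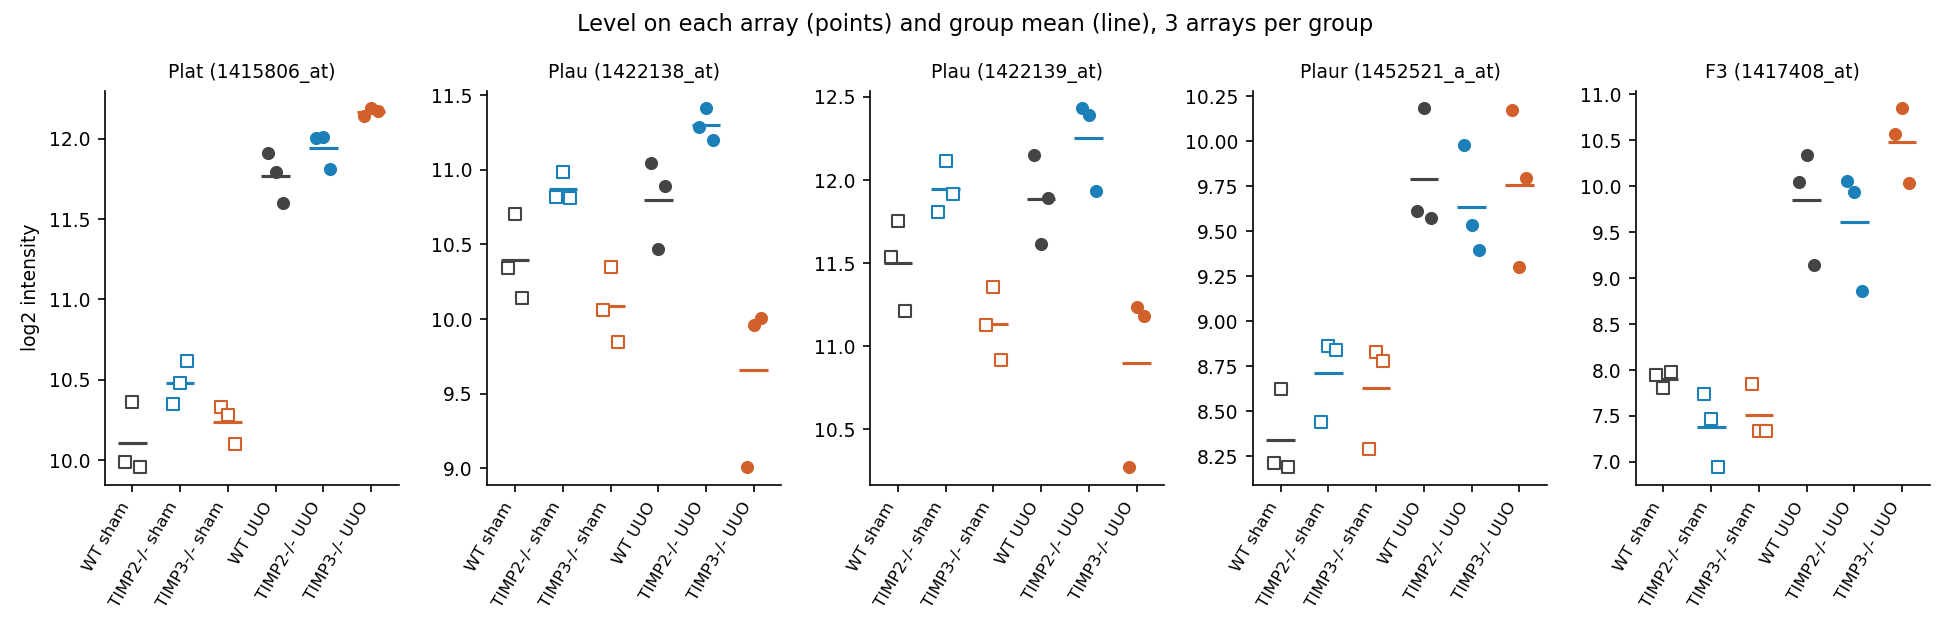
Log2 intensity of each member probe set (vertical axis, with its own range in each panel) on every array, by group (horizontal axis); open squares are sham arrays, filled circles UUO arrays and lines the mean of 3 arrays. Plat, Plaur and F3 arrays after UUO lie above all their sham arrays, while both Plau panels show TIMP3-/- lowest, at 514.8 to 1030 (1422138_at) and 1237 to 2410 (1422139_at) after UUO on the intensity scale.

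Plat, the gene for tissue-type plasminogen activator (probe set 1415806_at), had the smallest pooled replicate SD of the members, 0.14 on the log2 scale. After sham its intensities were 1017, 1317 and 993.8 in WT, 1302, 1431 and 1571 in TIMP2-/- and 1290, 1241 and 1096 in TIMP3-/-. After UUO they were 3851, 3549 and 3105 in WT, 4114, 4127 and 3594 in TIMP2-/- and 4519, 4672 and 4627 in TIMP3-/-. Every UUO array was thus above every sham array of any genotype, and the TIMP3-/- UUO arrays were the highest 3 of the 18.

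The rise of Plat was 3.17-fold in WT (log2 change 1.66 ± 0.13 SE, n = 3 arrays per group, limma adjusted p = 5.35e-07). It was 2.75-fold in TIMP2-/- (1.46 ± 0.13, adjusted p = 2.24e-06) and 3.82-fold in TIMP3-/- (1.93 ± 0.13, adjusted p = 1.17e-07). In order of mean log2 level the groups ran WT sham, TIMP3-/- sham, TIMP2-/- sham, WT UUO, TIMP2-/- UUO and TIMP3-/- UUO. WT sham and TIMP3-/- sham differed by less than that SD, and WT UUO and TIMP2-/- UUO overlapped. No genotype difference in Plat passed. After sham, TIMP2-/- lay above WT by 0.38 (95% interval 0.10 to 0.66, limma adjusted p = 0.145), with overlapping arrays. After UUO, TIMP3-/- lay above WT without overlap by 0.40 (95% interval 0.12 to 0.68, adjusted p = 0.134) and above TIMP2-/- by 0.23 (-0.05 to 0.50, adjusted p = 0.24).

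Plau, the urokinase gene, passed in comparisons of genotypes after UUO and in none of UUO with sham. Probe set 1422138_at read 1296, 1666 and 1127 in WT sham, 1804, 2024 and 1796 in TIMP2-/- sham and 1066, 1306 and 921.1 in TIMP3-/- sham. After UUO it read 2114, 1415 and 1898 in WT, 2499, 2725 and 2354 in TIMP2-/- and 514.8, 996.3 and 1030 in TIMP3-/-. All 3 TIMP3-/- UUO arrays were below every array of WT and TIMP2-/-, whether sham or UUO, and all 3 TIMP2-/- UUO arrays were above every other array.

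The other Plau probe set, 1422139_at, which targets the same transcript record and is no independent replicate, gave a similar order. Its intensities after sham were 2968, 3458 and 2373 in WT, 3591, 4442 and 3869 in TIMP2-/- and 2236, 2616 and 1936 in TIMP3-/-. After UUO they were 4550, 3142 and 3793 in WT, 5523, 5367 and 3911 in TIMP2-/- and 1237, 2410 and 2324 in TIMP3-/-. Here the TIMP3-/- UUO arrays overlapped WT sham, whose lowest array read 2373, and lay below all WT UUO and TIMP2-/- arrays.

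UUO against sham did not pass for Plau in any genotype, and neither probe set had an unadjusted p under 0.05 there. On 1422138_at the log2 change was 0.41 in WT (95% interval -0.10 to 0.91, limma adjusted p = 0.203), 0.43 in TIMP2-/- (-0.08 to 0.94, adjusted p = 0.165) and -0.43 in TIMP3-/- (-0.93 to 0.08, adjusted p = 0.126). On 1422139_at it was 0.38 (adjusted p = 0.234), 0.30 (0.328) and -0.24 (0.394). The TIMP3-/- estimate was thus below 0 and the others above it on both probe sets. With arrays centred on their medians, the fall in TIMP3-/- passed on 1422138_at (-0.66, adjusted p = 0.0247), as it did without TIMP3-/- UUO 3 (-0.60, adjusted p = 0.0486). In a fit of only the TIMP2-/- arrays, the rise on 1422138_at passed (0.43, adjusted p = 0.0244).

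**Figure D2:**
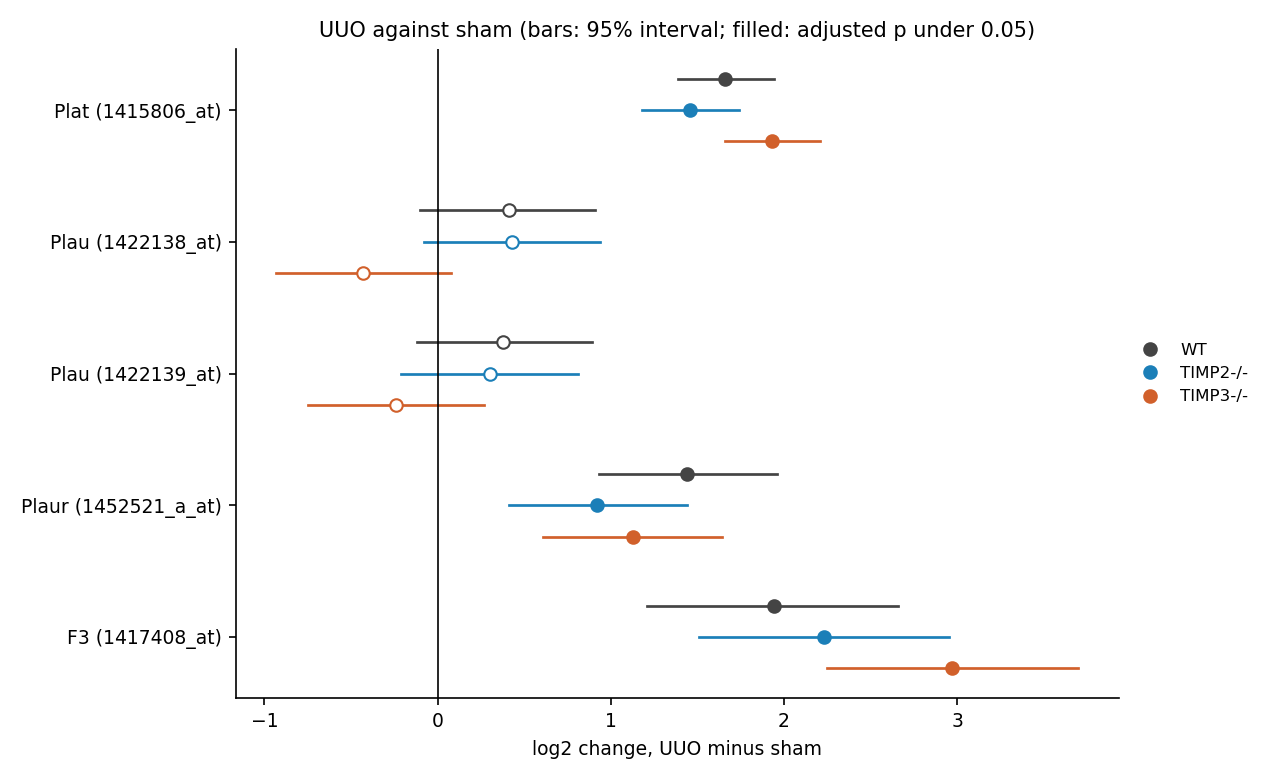
Log2 change, UUO minus sham (horizontal axis), of the 5 member probe sets in each genotype; points are limma estimates, bars 95% intervals, and filled points passed at an adjusted p under 0.05. Plat, Plaur and F3 are filled and above 0 in all 3 genotypes, with F3 in TIMP3-/- at 2.97, whereas the Plau points are open and span -0.43 to 0.43.

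After UUO, Plau was lower in TIMP3-/- than in either other genotype. Against TIMP2-/-, 1422138_at was 3.12-fold lower (log2 difference -1.64 ± 0.24, adjusted p = 0.00245) and 1422139_at 2.56-fold lower (-1.35 ± 0.24, adjusted p = 0.00911), without overlap between arrays. Of all probe sets 7.06% passed in that comparison, 4.65% as lower. Against WT, 1422138_at was 2.21-fold lower (-1.14 ± 0.24, adjusted p = 0.0389) and 1422139_at 1.99-fold lower without passing (-0.99 ± 0.24, adjusted p = 0.0702), again without overlap. Of all probe sets 0.707% passed in that comparison, 0.168% as lower. TIMP2-/- lay above WT by 0.50 on 1422138_at (-0.01 to 1.00) and by 0.37 on 1422139_at (-0.14 to 0.88), both with an adjusted p of 1. In that comparison 0.0486% of probe sets passed, and no member had an unadjusted p under 0.05, against 770 of all 22626 probe sets.

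Whether the contrast with WT passed depended on single arrays. On 1422138_at the limma call was lost without WT UUO 1 (-1.02, adjusted p = 0.145), WT UUO 3 (-1.10, 0.182), TIMP3-/- UUO 1 (-0.82, 0.106) or TIMP3-/- UUO 2 (-1.29, 0.0689), with the estimate below 0 each time. On 1422139_at it passed without WT UUO 2 (-1.12, adjusted p = 0.0214), TIMP3-/- UUO 3 (-1.13, 0.0226) or all 3 doubted arrays (-1.29, 0.032). The contrast with TIMP2-/- passed on both probe sets whichever array of either group was left out. With only the 6 arrays compared in the fit, the estimates were the same and fewer samples set the spread. The call with TIMP2-/- was then lost on both probe sets (-1.64, adjusted p = 0.0846 and -1.35, 0.106), and that with WT on 1422138_at (-1.14, 0.498).

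A difference in the same direction was measured in sham kidneys without passing. TIMP3-/- lay below TIMP2-/- by 0.78 on 1422138_at (log2 difference -0.78, 95% interval -1.29 to -0.28, limma adjusted p = 0.656) and by 0.82 on 1422139_at (-0.82, -1.33 to -0.31, adjusted p = 0.608), with no overlap between arrays. Against WT sham the differences were -0.31 and -0.37, and the arrays overlapped. No member probe set passed in any sham comparison, where 0.0221% (TIMP2-/- against WT), 0.0442% (TIMP3-/- against WT) and 0.0751% (TIMP3-/- against TIMP2-/-) of all probe sets did. At an unadjusted p under 0.05 the members numbered 1, 0 and 2 in these comparisons, the 1 being Plat and the 2 the Plau probe sets. Over all 22626 probe sets the numbers at that threshold were 5848, 2393 and 885.

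**Figure D3:**
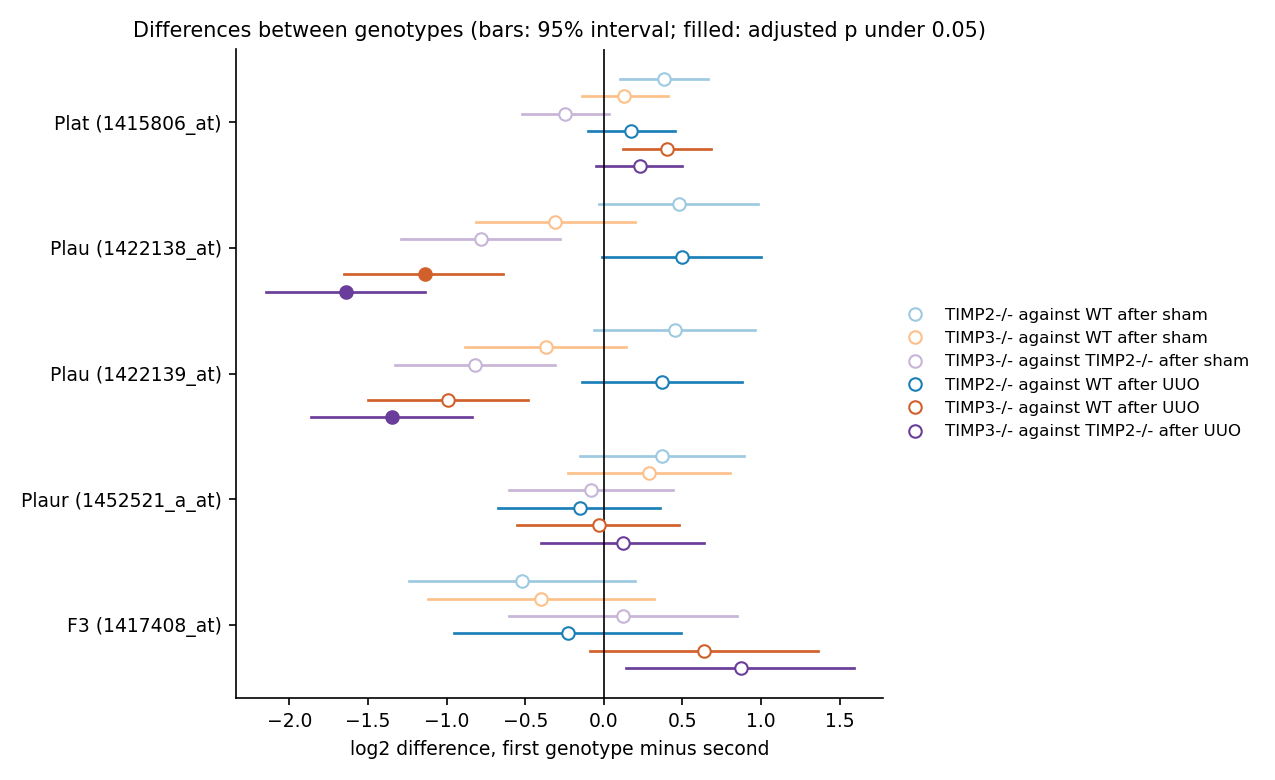
Log2 difference between genotypes, first minus second (horizontal axis), for the 5 member probe sets after sham (pale) and after UUO (dark); points are limma estimates, bars 95% intervals, and filled points passed at an adjusted p under 0.05. Plau alone has filled points, at -1.14 and -1.64 for 1422138_at and at -1.35 for 1422139_at, while all Plaur intervals cross 0.

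Proximal tubule markers also differed between genotypes after UUO. In TIMP3-/- against TIMP2-/- after UUO, 4 of 5 proximal tubule markers were lower (median log2 difference -1.31), and 1 of 5 was lower against WT (-0.77). Against WT, 5 of 5 were lower without WT UUO 2 (median -1.13) and 2 of 5 without the 3 doubted arrays (-0.95). Of 6 markers of the loop, distal tubule and collecting duct, 0 passed in either comparison on all arrays (medians -0.81 against TIMP2-/- and -0.73 against WT), and 3 were lower against WT without WT UUO 2 (-1.17). The mean log2 level of the proximal tubule markers was 10.27 to 10.94 over the TIMP3-/- UUO arrays, 10.59 to 12.20 over WT UUO and 11.60 to 12.40 over TIMP2-/- UUO. In the sham arrays, where the Plau differences given above did not pass, the proximal tubule markers' mean lay between 13.23 and 13.40. In UUO against sham all 5 proximal tubule markers fell in each genotype, with medians of -1.86 in WT, -1.36 in TIMP2-/- and -2.58 in TIMP3-/-. The Plau estimates on 1422138_at were 0.41 in WT, 0.43 in TIMP2-/- and -0.43 in TIMP3-/-, and none of them passed. The part of tubule content in the Plau differences was not tested.

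Plaur encodes the glycolipid-anchored receptor that concentrates urokinase on macrophages, neutrophils and injured epithelium (probe set 1452521_a_at). After sham its intensities were 297, 394.4 and 292.1 in WT, 347.4, 464.4 and 457.6 in TIMP2-/- and 312.7, 454.6 and 438.8 in TIMP3-/-. After UUO they were 781.4, 1161 and 761.1 in WT, 1007, 742.3 and 674 in TIMP2-/- and 1155, 631.3 and 887.6 in TIMP3-/-. All 9 UUO arrays lay above all sham arrays, and the 3 genotypes overlapped after either operation.

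The rise of Plaur was 2.72-fold in WT (log2 change 1.44 ± 0.24, limma adjusted p = 0.000416), 1.9-fold in TIMP2-/- (0.92 ± 0.24, adjusted p = 0.0102) and 2.18-fold in TIMP3-/- (1.13 ± 0.24, adjusted p = 0.00127). In TIMP2-/- it was lost without TIMP2-/- UUO 1 (0.75, adjusted p = 0.0588). Ordered by mean, TIMP2-/- UUO, TIMP3-/- UUO and WT UUO differed from their neighbours by 0.12 and 0.03, less than the pooled SD of 0.32, and so did the sham groups. After UUO the log2 difference from WT was -0.15 in TIMP2-/- (95% interval -0.67 to 0.36) and -0.03 in TIMP3-/- (-0.55 to 0.48). Differences inside these intervals were not resolved with 3 arrays.

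F3, the gene for tissue factor, a membrane protein of perivascular and epithelial cells that macrophages can also make (probe set 1417408_at), had the largest changes among the members. After sham its intensities were 245.9, 223 and 252 in WT, 213.7, 177.5 and 123.3 in TIMP2-/- and 230.3, 161.6 and 161.8 in TIMP3-/-. After UUO they were 1059, 1296 and 565.8 in WT, 1060, 982.5 and 462.6 in TIMP2-/- and 1515, 1838 and 1048 in TIMP3-/-. The lowest UUO array, TIMP2-/- UUO 3, was above the highest sham array, and the UUO groups overlapped each other.

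F3 rose 3.83-fold in WT (log2 change 1.94 ± 0.34, limma adjusted p = 0.000605), 4.69-fold in TIMP2-/- (2.23 ± 0.34, adjusted p = 0.000277) and 7.85-fold in TIMP3-/- (2.97 ± 0.34, adjusted p = 8.08e-06). These calls held in all 14 alternative fits of each comparison. The order of means ran TIMP2-/- sham, TIMP3-/- sham, WT sham, TIMP2-/- UUO, WT UUO and TIMP3-/- UUO, and only the step from sham to UUO and the last step exceeded the pooled SD of 0.46. After UUO, F3 in TIMP3-/- was above WT by 0.64 (95% interval -0.09 to 1.36, adjusted p = 0.293) and above TIMP2-/- by 0.87 (0.14 to 1.59, adjusted p = 0.111), neither passing. Without TIMP3-/- UUO 3 the difference from TIMP2-/- passed (1.09, adjusted p = 0.0446).

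Differences between genotypes in the response itself, tested as interaction terms, passed for no member and for 0% of all probe sets in each of the 3 pairs of genotypes. At an unadjusted p under 0.05 the members numbered 0 for TIMP2-/- minus WT, 2 for TIMP3-/- minus WT and 2 for TIMP3-/- minus TIMP2-/-, against 2015, 5852 and 2266 of all probe sets. For TIMP3-/- minus WT these were Plau 1422138_at (-0.83 ± 0.34, limma adjusted p = 0.169) and F3 (1.04 ± 0.48, adjusted p = 0.19). For TIMP3-/- minus TIMP2-/- they were Plat (0.47 ± 0.18, adjusted p = 0.429) and Plau 1422138_at (-0.86 ± 0.34, adjusted p = 0.43). In TIMP3-/- the estimates thus pointed down for Plau and up for Plat and F3. The interaction for Plaur was -0.52 (-1.25 to 0.21) for TIMP2-/- minus WT and -0.32 (-1.05 to 0.41) for TIMP3-/- minus WT.

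The 4 member genes were set beside other genes of the pathway in 4 lists, each gene by its brightest probe set. Over all 12393 genes, 16.6% were higher and 16.0% lower in WT, 15.7% and 21.6% in TIMP2-/-, and 25.6% and 38.8% in TIMP3-/-, with medians of -0.09, -0.12 and -0.19. Of 10 measured genes for plasmin and its regulators (12 listed), 3 rose and 1 fell in WT and in TIMP2-/-, and 3 rose and 3 fell in TIMP3-/-. The medians were 1.08, -0.08 and 0.06. Serping1, the C1 inhibitor, rose by 2.08, 1.59 and 1.75 in WT, TIMP2-/- and TIMP3-/-, and Serpinb6a, an intracellular protease inhibitor, by 1.86, 1.95 and 2.31 (log2 changes). Serpinf2, which encodes the main plasmin inhibitor alpha-2-antiplasmin, fell by 1.53, 1.21 and 2.81 on the log2 scale. Hrg, a plasminogen-binding plasma protein, fell by 2.32 in TIMP3-/-. Without WT UUO 2 it fell in WT (-1.48, limma adjusted p = 0.00809) and TIMP2-/- (-1.77, 0.000804) as well. In comparisons that hold no WT arrays, leaving out WT UUO 2 changes the spread shared by the groups but not the estimate.

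Plasminogen itself, Plg, a liver product, stood at 33.63 to 83.4 on 17 arrays and at 3063 on WT UUO 2, the array with high hepatocyte markers. Its log2 change in WT was 1.38 (limma adjusted p = 0.352). Without WT UUO 2 the sign turned, and Plg fell in WT (-0.72, adjusted p = 0.0275) and in TIMP3-/- (-0.91, 0.00117). The 17 arrays read around the 25th percentile of array intensity (56.76 to 64.22), so both falls lay near the floor. Without WT UUO 2, the list of plasmin and its regulators had 2 genes higher and 3 lower in WT, with a median of -0.06 in place of 1.08.

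After UUO, Serpinf2 was lower in TIMP3-/- than in TIMP2-/- (log2 difference -1.93, limma adjusted p = 0.00346) and than in WT (-1.33, adjusted p = 0.0484; -1.25 and 0.0573 without the doubted arrays). Its intensities after UUO were 794.6, 642.4 and 1304 in TIMP3-/-, 2965, 2986 and 4154 in TIMP2-/- and 1559, 1806 and 3761 in WT, so TIMP3-/- lay apart from both. A2m, a broad protease inhibitor, was lower in TIMP3-/- than in TIMP2-/- by 1.02 (difference -1.02, adjusted p = 0.0227), which was lost without the doubted arrays (-0.82, 0.0624). The other 8 genes of the list passed in neither comparison, though without WT UUO 2 the contrast with WT had 1 gene higher besides 1 lower. Over all genes and all arrays, 1.80% were higher and 5.70% lower in TIMP3-/- than in TIMP2-/-, and 0.315% and 0.242% against WT.

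Of 14 measured genes for plasminogen binding and partners of the urokinase receptor (15 listed), 9 rose in each genotype, and 2, 2 and 1 fell in WT, TIMP2-/- and TIMP3-/-. The medians were 0.67, 1.29 and 1.55. Itgam and Itgb2, the subunits of the leukocyte integrin Mac-1 that pairs with the receptor, rose by 2.84 and 2.61 in WT, 2.19 and 2.14 in TIMP2-/- and 3.36 and 2.50 in TIMP3-/- (log2 changes). Mrc2, an endocytic collagen receptor that associates with the urokinase receptor, rose by 2.46 in WT, 1.97 in TIMP2-/- and 2.23 in TIMP3-/-. Itgav, the alpha subunit of vitronectin-binding integrins, rose by 1.58 in TIMP2-/- and 2.30 in TIMP3-/-. Between genotypes after UUO, Igf2r, which binds the urokinase receptor, was higher in TIMP3-/- than in TIMP2-/- (0.79, limma adjusted p = 0.0243), and no other gene of the list passed. Without the doubted arrays 3 genes of the list were higher in that comparison, and without WT UUO 2 the contrast of TIMP3-/- with WT had 2 higher in place of 0. Over all genes and all arrays, 1.80% were higher in TIMP3-/- than in TIMP2-/- and 0.315% higher than in WT. Calls over all probe sets also shifted with the arrays left out, as given below.

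Of the 8 genes for substrates of plasmin or the activators, 5, 6 and 4 rose in WT, TIMP2-/- and TIMP3-/- and 0 fell, with medians of 1.74, 2.03 and 1.29. Fn1, fibronectin, rose by 3.63, 3.15 and 3.87 on the log2 scale. The fibrinogen chain genes Fgb and Fgg rose by 3.93 and 2.70 in WT and by 3.21 and 4.06 in TIMP2-/-, and Fgg by 2.17 in TIMP3-/-. The change of Fgb in TIMP3-/- was 1.59 (limma adjusted p = 0.0756), which passed without WT UUO 2 (1.59, 0.00103). WT UUO 2 is not among the arrays compared there, so the spread and the adjustment changed and the estimate did not. Pdgfd, a growth factor that urokinase activates, rose by 1.52 in TIMP2-/- and 1.85 in TIMP3-/-. Fibrinogen genes are also hepatocyte genes, and without WT UUO 2 the WT changes of Fgb and Fgg were 2.60 (limma adjusted p = 0.000204) and 2.11 (0.0196). Without the 3 doubted arrays Fgg no longer passed in WT (1.61, adjusted p = 0.0808), and 3 of the 8 rose there. No substrate gene passed between genotypes after UUO on all arrays. Without WT UUO 2, Fn1 was higher in TIMP3-/- than in WT (1.19, limma adjusted p = 0.0156) and than in TIMP2-/- (0.97, 0.0169). Without the doubted arrays Fn1 passed against WT (1.15, limma adjusted p = 0.0479) but not against TIMP2-/- (0.92, 0.0645). Fgb was lower in TIMP3-/- than in TIMP2-/- without the doubted arrays (-1.44, adjusted p = 0.0455) and than in WT without WT UUO 2 (-1.57, adjusted p = 0.0211). The Fgb difference from WT did not pass without the doubted arrays (-1.40, limma adjusted p = 0.0671).

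Of 22 measured genes of coagulation around tissue factor (23 listed), 6, 5 and 8 rose and 3, 3 and 5 fell in WT, TIMP2-/- and TIMP3-/-, with medians of 0.45, 0.04 and 0.27. F13a1, the fibrin-crosslinking subunit of factor XIII that macrophages make, rose by 3.58, 3.03 and 4.95, and F2r, the thrombin receptor PAR1, by 1.99, 2.81 and 2.83 (log2 changes). Vwf, von Willebrand factor of endothelium, rose by 1.66 in TIMP3-/- and by 1.78 in WT, where the limma call was lost without the doubted arrays (1.10, adjusted p = 0.0787). Pros1, protein S, a cofactor of the anticoagulant protein C, rose by 1.63 in WT, 1.95 in TIMP2-/- and 2.31 in TIMP3-/-. Proc, the gene for protein C, fell by 1.18, 1.00 and 2.28 in WT, TIMP2-/- and TIMP3-/- and was lower in TIMP3-/- than in TIMP2-/- after UUO (-1.33, limma adjusted p = 0.0083). Against WT after UUO it passed without WT UUO 2 (-1.16, adjusted p = 0.015). The median in WT was -0.26 without WT UUO 2. Tfpi, the gene for the tissue factor pathway inhibitor, changed by 0.73 in TIMP3-/-, the 1 genotype in which it passed (adjusted p = 0.0261).

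**Figure D4:**
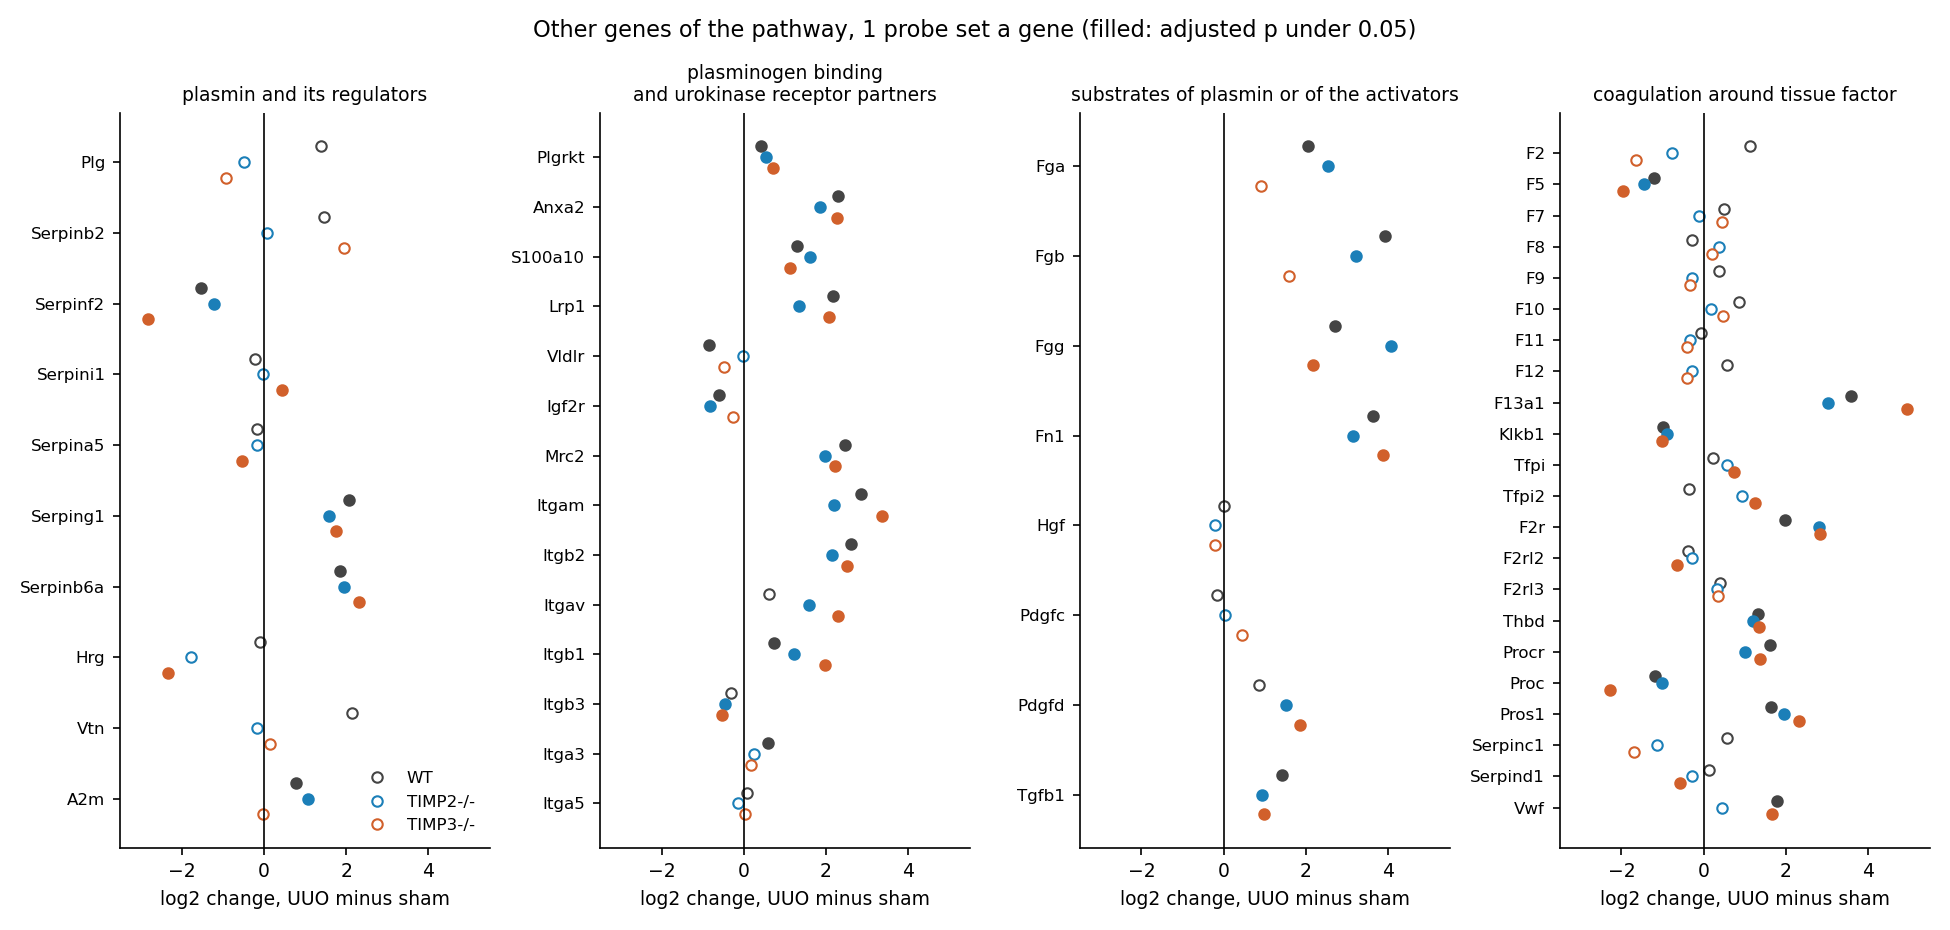
Log2 change, UUO minus sham (horizontal axis), of each measured gene of the 4 pathway lists, with 1 point per genotype; filled points passed at an adjusted p under 0.05 in limma. Serpinf2 and Proc lie left of 0 in all 3 genotypes, at -2.81 and -2.28 in TIMP3-/-, and Fn1 lies at 3.15 to 3.87.

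Macrophage and fibroblast markers moved with the rises of Plat, Plaur and F3. All 9 macrophage markers rose in each genotype, with median log2 changes of 3.19 in WT, 2.63 in TIMP2-/- and 2.89 in TIMP3-/-. Their mean log2 level ran from 8.75 to 9.68 over sham arrays and from 11.64 to 12.81 over UUO arrays. All 6 fibroblast markers rose as well, with medians of 3.17, 2.38 and 3.58. Of 7 endothelial markers, 3 rose in WT and in TIMP3-/-, and 0 rose and 1 fell in TIMP2-/- (2 and 1 without the doubted arrays). Of 8 neutrophil markers, 2, 0 and 2 rose and 1, 2 and 4 fell in WT, TIMP2-/- and TIMP3-/-. In WT 0 rose and 0 fell without WT UUO 2. Without the 3 doubted arrays 1 neutrophil marker rose in TIMP2-/- and 3 in TIMP3-/-. Adipocyte markers rose for 4, 1 and 4 of 4 (2 in WT without WT UUO 2), and urothelial markers for 2, 1 and 3 of 5 (1 in WT without WT UUO 2). The part of these cell types in the members' rises was not tested.

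By likeness over the 18 arrays, the genes closest to each member were found by Pearson correlation of log2 levels, as a description without a test. Plat was followed most closely by D17H6S56E-5 (r = 0.994), Myh9, a non-muscle myosin (0.986), and Cd14, a macrophage surface protein (0.985). Plau, by 1422139_at, was followed by Sik1, a kinase (0.867), Ptprf, a receptor phosphatase (0.835), and Sdc4, a syndecan (0.816). Plaur was followed by Vasp, an actin regulator (0.969), Atf5, a transcription factor (0.968), and Maged2 (0.967). F3 was followed by Morf4l2, a chromatin protein (0.994), Marcks, an actin-binding kinase substrate (0.990), and Gucy1b1, a subunit of soluble guanylate cyclase (0.989).

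The points share the step from sham to UUO, which alone gives high correlations for genes that rose. Within the 9 UUO arrays the same genes gave r = 0.926, 0.815 and 0.608 for Plat, 0.887, 0.879 and 0.838 for Plau, 0.796, 0.823 and 0.892 for Plaur and 0.978, 0.959 and 0.958 for F3. The closest 3 genes chosen within the UUO arrays alone shared 0 genes with those above for any member.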

How the data were processed

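Kidney RNA was hybridised to Mouse430A_2 GeneChips, and the deposited values are linear intensities, 1 per probe set and array, which the authors made with RMA per the submitters' processing notes (no version given). RMA's quantile step is meant to give every array nearly the same distribution, which can hide a change common to all transcripts. In the deposited values the 18 array medians still differed, between 201.2 and 247.4, and centring them moved the UUO comparisons as given above. The number of arrays limits the precision. No 2 arrays were identical.

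The authors' intensities were converted to log2 with no pseudocount. Of 22690 probe sets, 64 controls were left out. limma 3.58.1 in R 4.3.3 fitted 6 group means to the 18 arrays (12 residual and 3.28 prior degrees of freedom). Each of the 12 comparisons was adjusted by the Benjamini-Hochberg method over the 22626 probe sets, with a threshold of 0.05. The script was tested on simulated data. Errors after ± are standard errors of the fit. With 3 arrays per group, the smallest 2-sided exact permutation p would be 0.1. No gene was named from the 691 probe sets with several symbols or the 1555 with none.

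Members and lists were chosen with earlier results of these data known. From each pathway list, genes were named among the 3 with the largest absolute log2 change of those that passed in a comparison. Plg, Tfpi, Proc in UUO against sham and list genes' values set beside another genotype's or given without the doubted arrays were added after their values were seen. Likeness used genes with a mean log2 of at least 6, each by its brightest probe set. Promoter letters came from RefSeq, where 2 of the 4 measured members, Plaur and F3, had an entry that matched by symbol. Alternatives were other scaling, offset, filter, prior, probe set and array choices, and the replicate number as a block. Deviations of the 45 same-numbered pairs of arrays correlated from -0.58 to 0.67 (median 0.13), so the numbers were not taken to pair the samples.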

Additional observations from a re-analysis of the deposited data

How the results depend on the processing

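Of 918 recomputed log2 changes of member probe sets, 902 kept their direction and side of the threshold, or passed in neither, 8 newly passed and 8 no longer passed. None that passed changed sign, and 28 that passed in neither did. The 3 UUO calls per genotype for Plat, Plaur and F3 were made in every alternative except Plaur in TIMP2-/- without TIMP2-/- UUO 1. With the replicate number as a block, the 1 member call to change was F3 in TIMP3-/- against TIMP2-/- after UUO (0.87, limma adjusted p = 0.04; range over its 14 alternatives 0.04 to 0.451), and the TIMP3-/- minus TIMP2-/- interaction had 1 probe set called in place of 0.

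Members called in TIMP3-/- against WT after UUO numbered 0 with only the arrays compared, 2 without the 3 doubted arrays and 0 to 2 with each array left out in turn. In TIMP3-/- against TIMP2-/- they numbered 0 with only the arrays compared. Over all probe sets, with 1 probe set a gene (fewer features by construction), calls for UUO against sham numbered 4086 in WT, 4692 in TIMP2-/- and 8001 in TIMP3-/-. After UUO they were 3 (TIMP2-/- against WT), 49 (TIMP3-/- against WT) and 1001 (TIMP3-/- against TIMP2-/-), after sham 1, 2 and 5, and 1 for the TIMP3-/- minus TIMP2-/- interaction, as with an offset of 32. Without the doubted arrays calls were 3852 (WT UUO against sham), 812 and 975 (TIMP3-/- against WT and TIMP2-/- after UUO) and, after sham, 3, 5 and 26. With only the arrays compared they were 7, 5 and 26 after UUO, 2, 4 and 11 after sham, and 1 (TIMP2-/- minus WT) and 27 (TIMP3-/- minus TIMP2-/-) for interactions. The filter on dim probe sets left 3 for TIMP2-/- against WT after sham.

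Leaving out each array gave 4405 to 7397 calls for WT and 4033 to 9630 for TIMP2-/- (UUO against sham), 6 to 21, 35 to 2485 and 112 to 5577 after UUO (TIMP2-/- against WT, TIMP3-/- against WT, TIMP3-/- against TIMP2-/-), and 2 to 10, 5 to 6 and 9 to 17 after sham. For interactions it gave 0 to 3 (TIMP2-/- minus WT), 0 to 47 (TIMP3-/- minus WT) and 0 to 335 (TIMP3-/- minus TIMP2-/-). The highest counts for TIMP3-/- against either genotype after UUO, and for both its interactions, came without TIMP3-/- UUO 3. The cause of these shifts was not tested.

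With a gene represented by the mean of its probe sets, the 3 genes most like Plat, Plau, Plaur and F3 included 2, 1, 1 and 2 of those named. Pathway list counts without WT UUO 2 or without the 3 doubted arrays were chosen after seeing the data. With 3 arrays a group, 95% intervals were about 1 log2 unit wide for Plau and Plaur. Genotype differences whose interval included 0 were left unresolved.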

Other observations

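F3 was lowest in the array numbered 3 within each UUO group, at 565.8 in WT, 462.6 in TIMP2-/- and 1048 in TIMP3-/-, against 982.5 to 1838 on the other 6 UUO arrays. Those arrays also had the lowest macrophage marker mean of their group (11.64 in WT, 11.93 in TIMP2-/- and 12.28 in TIMP3-/-) and the highest proximal tubule marker mean (12.20, 12.40 and 10.94). On the component that separates UUO from sham they lay nearest to sham within their groups (11.6, 2.4 and 55.7). The macrophage means of TIMP2-/- UUO spanned only 11.93 to 12.02. Fibroblast and neutrophil marker means were lowest on array 3 in WT and TIMP3-/-, but highest on array 3 in TIMP2-/- (11.88 and 6.51). The numbers were not shown to pair the samples across groups, and what these 3 arrays share was not tested.

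F13a1, the macrophage factor XIII subunit, spread more widely than any member within TIMP3-/- UUO, at 4467, 2037 and 274.4, and in WT UUO, at 420.2, 2087 and 293.3, while TIMP2-/- UUO read 569.4, 410.2 and 460.3. Plaur, which macrophages also express, ranged from 631.3 to 1155 over the same TIMP3-/- arrays.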
